A study of Mus musculus with 13 samples.

Results

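The 10 genes described here encode the contractile and calcium-pumping proteins of fast-twitch muscle fibres: the myosin heavy chains Myh1, Myh2 and Myh4, the light chains Myl1 and Mylpf, the troponin subunits Tnnc2, Tnni2 and Tnnt3, the Z-disc protein Actn3 and the calcium pump Atp2a1. They were chosen by name as the fast fibre sarcomere set, and all 10 were found among the 49315 genes of the count table and passed the low-count filter that left 16496 genes for testing. The data are polyA-selected RNA-seq counts from 13 mouse skeletal muscle libraries. HFSC KO (3 libraries) and chow KO (3 libraries) came from mice with the systemic deletion miR-181a2b2-/-, fed the diet labelled HFSC or chow. HFSC flox (4 libraries) and chow flox (3 libraries) came from mice with the floxed allele, miR-181a2b2flox/flox, on the same 2 diets, which the sample titles call WT. The protocol names hindlimb ischemia for the whole set without saying which limb, muscle or time point was taken, and neither age nor a Cre driver is given. The extraction text names white adipose tissue although every library is labelled skeletal muscle.

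A muscle fibre contracts when calcium released from the sarcoplasmic reticulum binds troponin C and moves the troponin complex, so that myosin heads can pull on actin filaments. Fast fibres carry their own versions of most of these proteins, and slow fibres carry a second version from separate genes. In mouse, Myh4 encodes the heavy chain of type IIB fibres, Myh1 that of type IIX and Myh2 that of type IIA, in order of falling contraction speed, and a shift between them is the usual readout of a change in fibre type. Because these are bulk libraries, fewer fibres of a type and less RNA per fibre cannot be told apart.

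The fast markers held in every library: the 10 genes took between 10.2% and 15.7% of all counts, and Myh4 ranked 1 or 2 among all genes. Library totals ran from 20830943 to 45710227 counts, with a median of 29011060. The libraries are labelled as separate samples, but no label says that they are different mice, and the p-values below speak only of the variation among these libraries, which may be technical. The polyA libraries cannot check the deletion: the Mir181a-2 locus had 0 counts in HFSC KO, 1 in HFSC flox, 0 in chow KO and 3 in chow flox, and Mir181b-2 had 0 in each group. Chow flox replicate 4 stood apart from its group. Levels are given in CPM, counts scaled by TMM to a common library size. The 11 fibroblast and matrix markers summed to 1411 CPM in that library, against 4197 and 7615 CPM in the other chow flox libraries and 437 to 696 CPM in chow KO. Its values for most fast fibre genes lay near those of chow KO, so counts of called genes that rest on chow flox are also given without it. HFSC KO replicate 3 also differed from its group, with the highest Myh1 of any library and 256 CPM of the embryonic myosin Myh3, against 23.5 and 49.6 CPM in the other HFSC KO libraries.

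The 3 fast myosin heavy chain genes lie side by side on the plus strand of chromosome 11 (GRCm38), Myh2 at 67171027-67197517, Myh1 at 67200052-67224575 and Myh4 at 67238029-67260446. Their upstream sequences are shown because the shares of these 3 genes are compared below. These positions are GENCODE gene bounds, and the sequences, read from RefSeq's promoter table (GRCm38.p6), lie upstream of the RefSeq starts, which differ somewhat for Myh1 and Myh4. The stretch printed for Myh1 is 200 bases long and ends 50 bases before its RefSeq start, while those of Myh2 and Myh4 are the whole 250 bases before theirs. Of the 10 genes 7 were matched in that table, and the promoters of Tnni2, Tnnt3 and Actn3 were not analysed here. The plus strand is printed 5′ to 3′, with the longest run that all 3 share, 20 bases, in capitals.

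Myh2, chr11:67170777-67171026: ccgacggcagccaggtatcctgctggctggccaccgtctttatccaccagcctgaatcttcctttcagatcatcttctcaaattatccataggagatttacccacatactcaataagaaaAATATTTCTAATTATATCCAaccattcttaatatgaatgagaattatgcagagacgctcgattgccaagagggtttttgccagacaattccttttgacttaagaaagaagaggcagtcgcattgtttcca
Myh1, chr11:67199852-67200051: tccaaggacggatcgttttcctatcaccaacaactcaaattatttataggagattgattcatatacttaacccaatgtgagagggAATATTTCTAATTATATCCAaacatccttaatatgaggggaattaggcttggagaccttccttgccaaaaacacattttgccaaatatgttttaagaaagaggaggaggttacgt
Myh4, chr11:67237562-67237811: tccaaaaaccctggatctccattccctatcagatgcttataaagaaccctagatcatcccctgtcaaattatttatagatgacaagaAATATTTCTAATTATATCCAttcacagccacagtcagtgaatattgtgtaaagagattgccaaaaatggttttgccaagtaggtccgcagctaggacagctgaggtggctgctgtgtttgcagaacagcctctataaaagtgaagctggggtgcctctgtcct

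The shared run began 130 bases before the RefSeq start of Myh2, 165 before that of Myh1 and 163 before that of Myh4. Among 27025 RefSeq promoters, read on both strands over the 250 bases before each start, 3 (0.0111%) held it, and they were these 3 genes. The motif counts below also cover the whole 250 bases on both strands, so for Myh1 they include 50 bases not printed. The motif TATAAA occurred in 13% of all promoters, at 2 places in the Myh1 window, 3 in that of Myh4 and 1 in that of Myl1. The E-box CANNTG, bound by myogenic factors, occurred in 66% of promoters and at 2 places in that of Myh4, 2 in that of Tnnc2 and 1 each in those of Myl1, Mylpf and Atp2a1. The MEF2 consensus occurred in 3.01% of promoters and at 1 place each in those of Myh1 and Myh4. These matches describe letters in a window and not sites in use.

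The deleted cluster on chromosome 2 encodes miR-181a-5p and miR-181b-5p, shown with the seed (bases 2 to 8) in capitals.

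mmu-miR-181a-5p: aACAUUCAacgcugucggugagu
mmu-miR-181b-5p: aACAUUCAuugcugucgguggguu

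Both carry the same seed. RefSeq also lists both mature sequences at a locus on chromosome 1, which the labels do not name as deleted. The 7-base match to the seed, TGAATGT, was present in the longest annotated 3′ UTR of 0 of the 10 fast fibre genes, against 2691 of 13938 tested genes with an annotated 3′ UTR (19.3%). The UTRs of the 10 genes are short, from 100 bases in Tnni2 to 306 in Atp2a1.

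The other 7 genes lie elsewhere in the genome (GRCm38): Myl1 on chromosome 1 at 66924295-66945404, Tnnc2 on chromosome 2 at 164777161-164779967 and Actn3 on chromosome 19 at 4861216-4877909, all on the minus strand. Chromosome 7 carries Atp2a1 at 126445858-126463108 on the minus strand and, on the plus strand, Mylpf at 127208890-127214298, Tnni2 at 142441808-142444410 and Tnnt3 at 142498836-142516009. Counts are summed over whole genes.

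Per kilobase of exon, Tnnt3, which ties the troponin complex to tropomyosin, had the highest mean level over the 13 libraries, 11228 CPM per kb. Myh4 followed at 8992 and the calcium pump Atp2a1 at 6974 CPM per kb. The regulatory light chain Mylpf averaged 6742, the essential light chain Myl1 4299.8, the inhibitory troponin Tnni2 4199.9, the calcium-binding troponin Tnnc2 2809.6 and Actn3 2372 CPM per kb. Myh1 averaged 1155 and Myh2 538 CPM per kb, the lowest of the set. Atp2a1 exceeded Mylpf in 7 of 13 libraries and Myl1 exceeded Tnni2 in 9 of 13, so those neighbours do not differ beyond their spread. The other neighbours kept their order in 11 to 13 of 13 libraries. Exon length is that of all annotated exons of a gene merged, so the order between genes also depends on the annotation.

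On the HFSC diet in KO mice, Myh1 and Mylpf rose and the other 8 genes did not pass the test. In flox both had positive fold changes that did not pass. Nothing in the set was called lower on HFSC, although Myh4, Actn3, Atp2a1, Myh2, Tnnc2, Tnnt3 and Tnni2 had negative fold changes in KO. Unless another test is named, folds and p-values come from edgeR's quasi-likelihood test on the counts. P-values have Benjamini-Hochberg adjustment over the 16496 genes, and a gene is called at an adjusted p under 0.05. Limma voom, where named, weighted each library by its estimated quality.

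Myh1 had 7897, 14826 and 9849.7 CPM in HFSC KO, against 4307, 6046 and 4753 CPM in chow KO. The flox libraries had 6707, 7567, 7421 and 11963 CPM on HFSC, against 4549, 4398 and 5121 CPM on chow. Every HFSC library lay above every chow library of the same genotype. Means were 10858 ± 3573 CPM in HFSC KO, 8415 ± 2395 in HFSC flox, 5035 ± 903 in chow KO and 4689 ± 381 in chow flox (SD, n = 3, and 4 in HFSC flox). The log2 fold change was 1.11 ± 0.27 (SE) in KO, a 2.16-fold rise (adjusted p = 0.0141). In flox it was 0.84 ± 0.26, with an adjusted p of 0.198, and DESeq2 called it (adjusted p = 0.0246), as did limma voom (adjusted p = 0.00564). In KO edgeR's call was lost without HFSC KO replicate 3 (log2 fold change 0.82, adjusted p = 0.0516) and without chow KO replicate 3 (1.07, adjusted p = 0.0593).

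Mylpf had 9683, 8394 and 9271 CPM in HFSC KO, against 5134, 5800.4 and 6177 CPM in chow KO. The KO libraries of the 2 diets did not overlap, and the 3 HFSC KO values lay close together. The log2 fold change was 0.68 ± 0.21 (adjusted p = 0.0347). In flox, HFSC libraries had 5876, 6606, 9663 and 8669 CPM, against 6095, 4908 and 6809 CPM in chow libraries. Those groups overlapped, since HFSC flox replicates 1 and 2 lay below the highest chow library, and the log2 fold change of 0.38 ± 0.20 did not pass (adjusted p = 0.458). Without any 1 of the 6 KO libraries Mylpf was no longer called, with adjusted p from 0.0543 to 0.0981 by edgeR.

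Myl1, which encodes the essential light chain of the same myosin head, had 10905, 9928 and 11096 CPM in HFSC KO, against 6941, 9167 and 9417 CPM in chow KO. Its KO groups did not overlap, but the log2 fold change of 0.32 ± 0.22 did not pass (adjusted p = 0.293). The flox values were 8001, 8903, 10517 and 9328 CPM on HFSC, against 6870.4, 5218 and 9638 CPM on chow, with overlap and a log2 fold change of 0.34 ± 0.21 (adjusted p = 0.534).

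Myh4 had 52319.8, 43217 and 37789 CPM in HFSC KO, against 56172, 75096 and 84328 CPM in chow KO. The KO groups did not overlap, and chow KO held the 3 higher values. The log2 fold change was -0.69 ± 0.35 (adjusted p = 0.148), and it was called lower by limma voom (adjusted p = 0.0168) and in a fit of the 2 KO groups alone (adjusted p = 0.0268). Myh4 values in HFSC flox were 49867, 70168, 48831 and 48017 CPM, against 37957, 25232 and 74255 CPM in chow flox. The chow flox libraries spanned nearly the whole range of the data, with replicate 4 high and replicate 3 the lowest of all 13, and the log2 fold change of 0.24 ± 0.32 did not pass (adjusted p = 0.810).

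Myh2 had 3379, 3248 and 4283 CPM in HFSC KO, against 4477, 5908 and 4347 CPM in chow KO. These groups missed each other by a small margin, and the log2 fold change was -0.43 ± 0.22 (adjusted p = 0.161). Myh2 values in HFSC flox were 3411, 3700.1, 2694 and 2664 CPM, against 2882, 4662 and 4253 CPM in chow flox, with overlap and a log2 fold change of -0.34 ± 0.21 (adjusted p = 0.538).

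**Figure D1:**
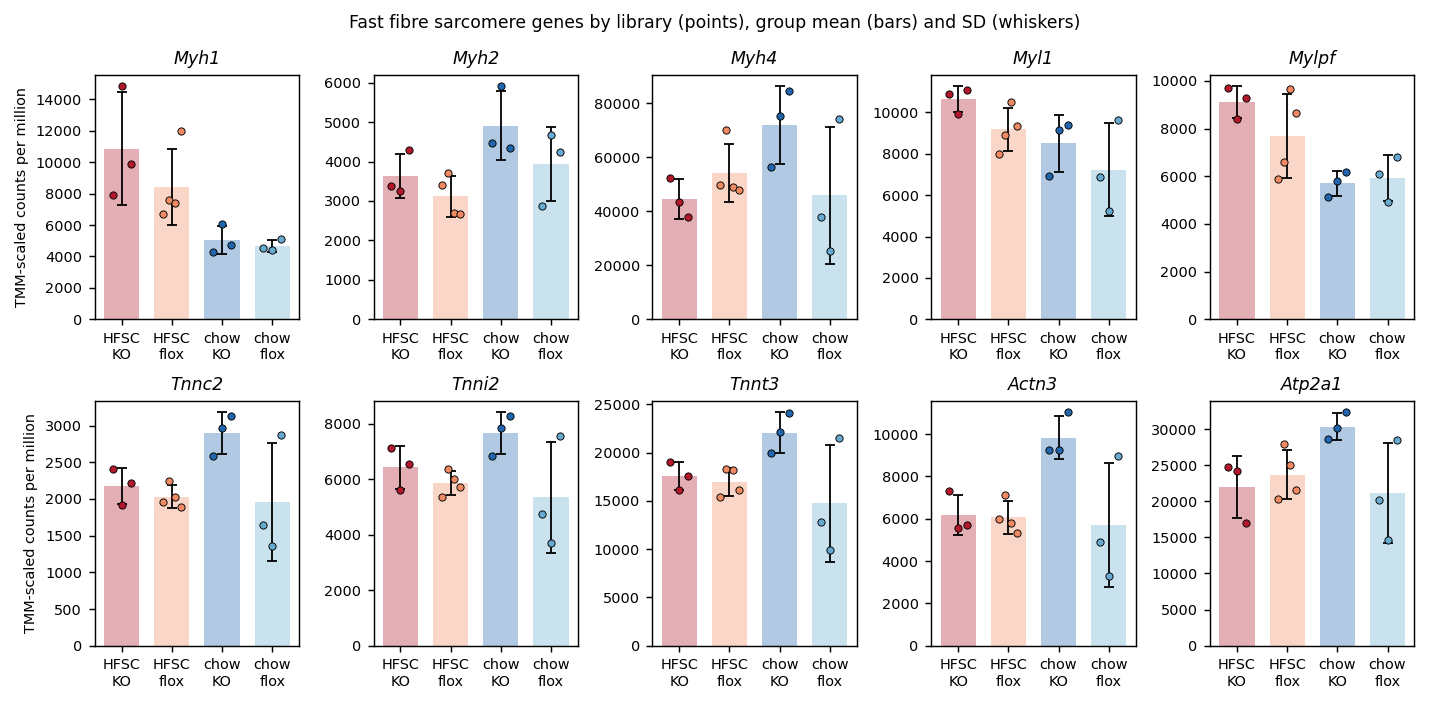
TMM-scaled CPM (y axis, linear, from 0) of the 10 fast fibre sarcomere genes in the 4 groups, with 1 point per library, bars at group means and whiskers of 1 SD (n = 3, and 4 in HFSC flox). Myh1 sits higher in both HFSC groups than in both chow groups, while in the panels of Myh4, the 3 troponins, Actn3 and Atp2a1 chow KO has the highest mean and chow flox the widest whiskers.

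The troponins, Actn3 and Atp2a1 varied alike across libraries, and none was called for diet by edgeR in the fit of all 13 libraries. Tnnc2 had 2402, 1917 and 2218 CPM in HFSC KO, against 2583, 2967 and 3136 CPM in chow KO, and 1958, 2251, 2022 and 1892 CPM in HFSC flox, against 1639, 1365 and 2872 CPM in chow flox. The KO groups did not overlap and the flox groups did, because chow flox replicate 4 lay above all HFSC flox libraries and the other chow flox libraries below them. Its log2 fold change was -0.41 ± 0.23 in KO (adjusted p = 0.204) and 0.05 ± 0.22 in flox (adjusted p = 0.949).

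Tnni2 had 7133, 5600.1 and 6544 CPM in HFSC KO, against 6832, 7862 and 8287 CPM in chow KO. It was the single member whose KO groups overlapped between diets, through HFSC KO replicate 2 (log2 fold change -0.25 ± 0.23, adjusted p = 0.429). In flox Tnni2 had 5347, 6374, 5999 and 5717 CPM in HFSC flox, against 4764, 3699.6 and 7575 CPM in chow flox (log2 fold change 0.13 ± 0.22, adjusted p = 0.853).

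Tnnt3 had 19058, 16099 and 17558 CPM in HFSC KO, against 19971, 22119 and 24118 CPM in chow KO, with a log2 fold change of -0.33 ± 0.25 (adjusted p = 0.336). In HFSC flox it had 15418, 18262, 18153 and 16068 CPM, against 12757, 9951 and 21527 CPM in chow flox (0.20 ± 0.23, adjusted p = 0.772). The KO groups were apart by a small margin, and chow flox replicate 4 again lay above all HFSC flox libraries.

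Actn3, which crosslinks actin at the Z-disc of fast fibres, had 7288, 5552 and 5714 CPM in HFSC KO, against 9239, 9260.3 and 11023 CPM in chow KO. Its log2 fold change of -0.67 ± 0.30 had an adjusted p of 0.107, and it was called lower by limma voom (adjusted p = 0.0128) and in the fit of the KO groups alone (adjusted p = 0.0111). In HFSC flox Actn3 had 6008, 7141, 5818 and 5308 CPM, against 4882, 3273 and 8963 CPM in chow flox (0.09 ± 0.28, adjusted p = 0.928). The chow KO libraries were the 3 highest of all, and chow flox replicate 4 came next.

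Atp2a1, the pump that returns calcium to the sarcoplasmic reticulum of fast fibres, had 24724, 24236 and 17046 CPM in HFSC KO, against 28595, 30089 and 32288 CPM in chow KO. It had 20284, 27906, 25025 and 21588 CPM in HFSC flox, against 20234, 14687 and 28540.4 CPM in chow flox. Its KO groups did not overlap, with a log2 fold change of -0.46 ± 0.25 (adjusted p = 0.184), while the flox groups overlapped, at 0.16 ± 0.24 (adjusted p = 0.8285).

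In KO, then, 2 of the 10 genes were called for diet, both higher, where 25.5% of all tested genes were called in 1 direction or the other. DESeq2 also called 2 members, both higher, with 5273 genes in all. Limma voom called 2 higher and 4 lower (Myh4, Tnnc2, Actn3 and Atp2a1), with 7116 genes in all. The fit of the KO groups alone called 2 higher and 3 lower (Myh4, Tnnc2 and Actn3), with 5767 genes in all. Without HFSC KO replicate 3, 0 of the 10 were called by edgeR, with 2 at an unadjusted p under 0.05. Over all genes these counts were 2864 and 5934. For 9 of the 10 the KO groups of the 2 diets did not overlap, where 50.6% of all genes did so. In flox, 0 of the 10 were called by edgeR, where 0.418% of all genes were called. DESeq2 called 1 member higher, with 392 genes in all, and limma voom 3, with 4145 genes in all. By edgeR 1 member, Myh1, had an unadjusted p under 0.05. Only Myh1 had flox groups that did not overlap, where 9.86% of genes did so. Without chow flox replicate 4, 1 member was called in flox, Tnnt3 at 0.58 (adjusted p = 0.0444), and 1453 genes in place of 69. The median log2 fold change of the 10 was -0.37 in KO and 0.18 in flox, where that of all genes was 0.02 in KO and -0.01 in flox. The median of the 10 in flox was 0.53 without chow flox replicate 4, with 8 members at an unadjusted p under 0.05 in place of 1. Over all genes, 4649 had such a p, in place of 2105. Without chow flox replicate 3, 4 of the 10 had a positive fold change in flox and 0 were called, where 29 genes were called.

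The direction of several of these genes depended on the scaling. With each library scaled to the summed counts of 14 sarcomere genes that fast and slow fibres share, the median of all genes moved to 0.46 in KO and that of the 10 genes to 0.07. Myh1 then stood at 1.55 and Mylpf at 1.12 on the log2 scale, both called. In all, 3 members were called higher, where 4262 of 16496 genes were called higher and 411 lower. Myh2, Tnnc2, Tnni2 and Tnnt3 turned from negative to slightly positive, at 0.02, 0.03, 0.19 and 0.11, below the median of all genes.

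Markers of other cell types moved with diet in KO. Called higher were 11 of 11 fibroblast and matrix markers, 9 of 10 monocyte and macrophage markers, 7 of 8 endothelial, 5 of 7 adipocyte, 5 of 5 red blood cell and 4 of 6 tendon markers. Summed matrix markers were at 2987 to 3587 CPM in HFSC KO, against 437 to 696 CPM in chow KO, and macrophage markers at 216 to 274 CPM in HFSC KO, against 38.1 to 75.3 CPM in chow KO. The endothelial sums were 478 to 537 CPM in HFSC KO, against 203 to 247 CPM in chow KO, and the adipocyte sums 488 to 752 CPM, against 209 to 271 CPM. In flox, edgeR called 0 markers of these 6 lists for diet; in the matrix and macrophage lists 1 each had an unadjusted p under 0.05, DESeq2 called 0 of both and limma voom 3 macrophage markers lower. There the matrix sums overlapped, 3376 to 5155 CPM on HFSC against 1411 to 7615 CPM on chow. Without chow flox replicate 4, 7 macrophage markers were called lower in HFSC flox. Ucp1, 1 of the 8 adipocyte markers, did not pass the low-count filter. The part of these cells in the fast fibre values was not tested.

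**Figure D2:**
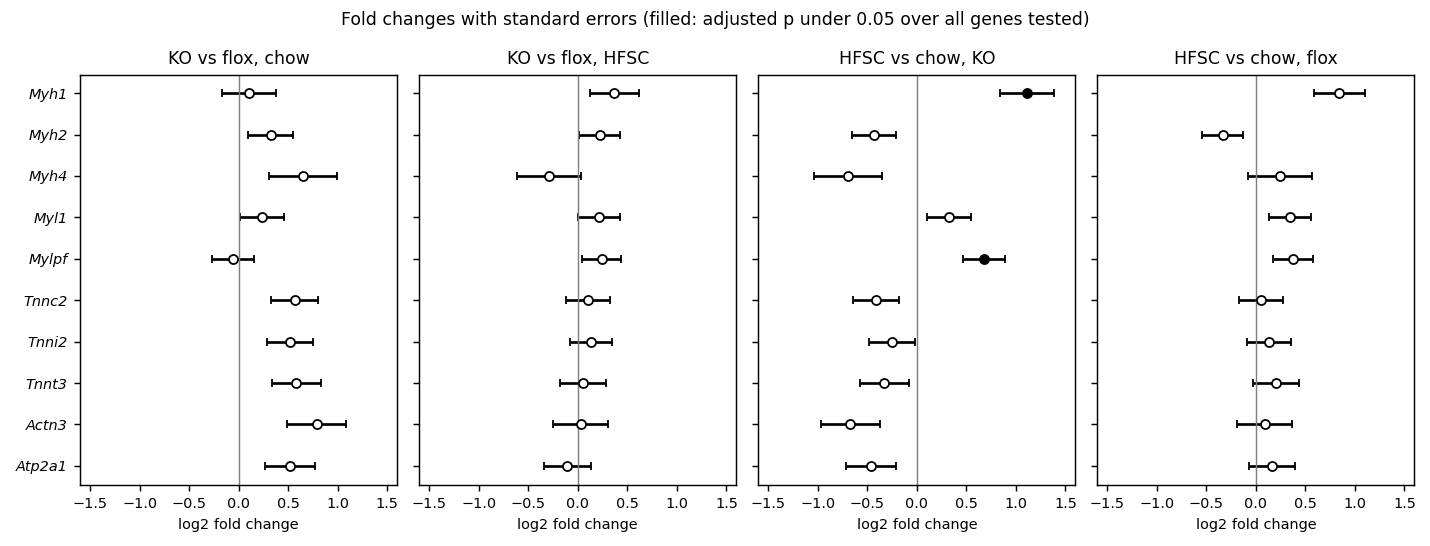
Log2 fold changes of the 10 genes (points, with whiskers of 1 SE) for KO against flox on chow and on HFSC, and for HFSC against chow in KO and in flox. Only Myh1 and Mylpf in the KO diet comparison are filled, for an adjusted p under 0.05 over all 16496 genes. Their values there are 1.11 and 0.68.

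The deletion was compared with the floxed allele on each diet. On chow, 9 of the 10 genes had a positive fold change in KO and none passed the test; on HFSC they ran from -0.29 to 0.37 on the log2 scale. Actn3 on chow came nearest, at 0.79 ± 0.30 on the log2 scale (1.72-fold, adjusted p = 0.0927), with 9239, 9260.3 and 11023 CPM in KO against 4882, 3273 and 8963 CPM in flox. Its groups did not overlap, though the lowest KO library exceeded flox replicate 4 by little. Atp2a1 was the other gene whose chow groups were apart, at 0.52 ± 0.25 (adjusted p = 0.165), with the lowest KO library just above flox replicate 4.

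The remaining values on chow ran from 0.65 ± 0.35 for Myh4 (adjusted p = 0.197), 0.58 ± 0.25 for Tnnt3 (adjusted p = 0.126), 0.56 ± 0.24 for Tnnc2 (adjusted p = 0.118) and 0.52 ± 0.23 for Tnni2 (adjusted p = 0.138) down to -0.06 ± 0.21 for Mylpf (adjusted p = 0.863). Myh2 was at 0.32 ± 0.22 (adjusted p = 0.318), Myl1 at 0.23 ± 0.22 (adjusted p = 0.474) and Myh1 at 0.10 ± 0.27 (adjusted p = 0.808). The median was 0.52, where that of all genes was -0.01. By edgeR 0 of 10 members were called, against 11.5% of all genes, and 2 of 10 had groups that did not overlap, against 24.8%. Unadjusted, 4 members (Tnnc2, Tnni2, Tnnt3 and Actn3) had p under 0.05, where 5579 of 16496 genes did so. DESeq2 called 1 member, Actn3, where it called 3256 of 16483 genes. Limma voom called 8 members, where it called 9877 of 16496 genes.

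These chow values depended on single libraries of both genotypes. Without chow flox replicate 4, 7 of the 10 genes were called higher in KO, Myh4, Myl1, Tnnc2, Tnni2, Tnnt3, Actn3 and Atp2a1. Actn3 was then at 1.27 (adjusted p = 0.000518) and Myh4 at 1.19 (adjusted p = 0.00299), while 7158 genes were called in place of 1898. Without chow flox replicate 3, 0 members and 0 genes were called by edgeR (2785 genes at an unadjusted p under 0.05), and Actn3 was at 0.49. EdgeR also called 0 genes without chow KO replicate 2 or 3, where 4223 and 3525 had an unadjusted p under 0.05. In the fit of the chow groups alone it called 2 genes, 0 of them members. Myh1, Myh2 and Myl1 changed sign when library totals replaced TMM, at -0.23, -0.03 and -0.06, and the median of all genes then stood at -0.35.

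Cell type markers also moved with genotype on chow: 11 of 11 matrix, 10 of 10 macrophage, 4 of 8 endothelial and 4 of 6 tendon markers were called lower in KO. These counts were 11, 10, 7 and 5 without chow flox replicate 4, and in the fit of the chow groups alone edgeR called 0 of each, with 11 matrix and 5 endothelial markers at an unadjusted p under 0.05. Summed macrophage markers were at 38.1 to 75.3 CPM in chow KO, against 105 to 1044 CPM in chow flox, where replicate 4 had the 105. Their part in the fast fibre values was not tested.

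On HFSC, KO and flox libraries overlapped for every one of the 10 genes, where 12.7% of all genes had groups apart. Fold changes ran from -0.29 ± 0.32 for Myh4 (adjusted p = 0.821) to 0.37 ± 0.25 for Myh1 (adjusted p = 0.655), on the log2 scale. By edgeR 0 of 10 were called, against 0.0182% of all genes. Of the 10, 0 had an unadjusted p under 0.05, against 1721 of all genes. DESeq2 and limma voom also called 0 of the 10, where they called 165 and 33 genes. Among the marker lists, 1 gene was called, the globin Hba-a1, higher in KO (1.23 ± 0.16, adjusted p = 0.0347). That call was lost with library totals (adjusted p = 0.132), shared sarcomere scaling (0.142), a replicate block (0.245) or the HFSC groups alone (0.0602), and without HFSC flox replicate 1, 2 or 3 or HFSC KO replicate 3 or 4. DESeq2 called 4 of the 5 red blood cell markers higher and limma voom 2. The summed red blood cell markers did not overlap, 109 to 147 CPM in HFSC KO against 47.7 to 69.4 CPM in HFSC flox; their part in the fast fibre values was not tested.

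The diet response was compared between genotypes by the interaction term. Myh4 had the most negative value, -0.94 ± 0.47 on the log2 scale (adjusted p = 0.203), followed by Actn3 at -0.76 ± 0.40 (adjusted p = 0.225) and Atp2a1 at -0.63 ± 0.35 (adjusted p = 0.238). Mylpf, at 0.30 ± 0.29, and Myh1, at 0.27 ± 0.37, were the positive ones; with shared sarcomere scaling Myh2, Myl1, Tnnc2 and Tnni2 were positive too (0.50, 0.48, 0.0070 and 0.092). By edgeR 0 of 10 members and 0 of 16496 genes (0%) were called; 0 members had an unadjusted p under 0.05, against 4811 of all genes. DESeq2 called 0 members, with 2025 genes in all, and limma voom 6 members lower, with 7061. Without chow flox replicate 4, 6 members were called lower, with Myh4 at -1.47 (adjusted p = 0.0052), where 2732 of all genes were called lower. Without chow flox replicate 3, 0 members and 0 genes were called. The rise of Myh1 on HFSC is therefore not shown to differ between KO and flox.

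Shares of the 3 heavy chain genes were read within each library, where library scaling cancels. Each share is the gene's count over the summed counts of Myh1, Myh2 and Myh4, which ran from 1284014 to 2967105 per library, so 95% Wilson intervals are at most 0.0763 percentage points to each side and cover counting error only. Reads that could map to more than 1 of these similar genes may have been lost or split in counting, and counting by strand is not stated. Exons of Myh1 overlap the opposite-strand gene Myhas by 515 bases and those of Myh2 overlap 9430073C21Rik by 237, and among the other members those of Atp2a1 overlap Rabep2 by 763 and those of Tnnc2 overlap Ube2c by 592.

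Myh4 held the most in all 13 libraries and Myh1 the next most in 11 of them. Myh1 took 12.4%, 24.2% and 19.0% in HFSC KO, against 6.63%, 6.95% and 5.09% in chow KO. In HFSC flox it took 11.2%, 9.29%, 12.6% and 19.1%, against 10.02%, 12.8% and 6.12% in chow flox. The KO diets did not overlap, with HFSC KO replicate 3 the highest library; the flox diets did. Myh4 showed the reverse in KO, at 82.3%, 70.5% and 72.8% on HFSC against 86.5%, 86.3% and 90.3% on chow. In flox Myh4 was at 83.1%, 86.2%, 82.8% and 76.7% on HFSC, against 83.6%, 73.6% and 88.8% on chow.

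Myh2 held 5.31%, 5.30% and 8.25% in HFSC KO, against 6.89%, 6.79% and 4.65% in chow KO. It held 5.69%, 4.54%, 4.57% and 4.25% in HFSC flox, against 6.35%, 13.6% and 5.09% in chow flox. Chow flox replicate 3 stood alone at 13.6%, above every other library.

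Averaged over both genotypes, the Myh1 share was 15.8% on HFSC and 7.94% on chow, a difference of 7.84 percentage points. The exact permutation test of diet within genotype (two-sided, 700 arrangements, smallest p it allows 0.00143) gave p = 0.02, and 0.12 after adjustment over the 6 share tests. Without HFSC KO replicate 3 the difference was 6.43 points (adjusted exact p = 0.12), and without chow flox replicate 4 it was 6.96 points (adjusted exact p = 0.24). The Myh4 share was 6.14 points lower on HFSC (78.7% against 84.8%; exact p = 0.117, adjusted 0.351), and 8.25 points lower without chow flox replicate 3 (adjusted exact p = 0.05). The Myh2 share was 1.70 points lower (5.53% against 7.23%; exact p = 0.236, adjusted 0.471). KO minus flox differences, averaged over both diets, were 1.02 points for Myh1, -0.35 for Myh2 and -0.67 for Myh4, each with an adjusted exact p of 0.926. These averages join differences of opposite sign on the 2 diets. On chow they were -3.44 points for Myh1, -2.23 for Myh2 and 5.67 for Myh4. On HFSC they were 5.49, 1.52 and -7.01 points, and KO and flox libraries overlapped in each case. In KO alone the diet difference was 12.3 points for Myh1 and -12.5 for Myh4, both at exact p = 0.1, the smallest that 3 against 3 libraries allow. In flox alone it was 3.38 points for Myh1 (exact p = 0.4), -3.58 for Myh2 (exact p = 0.0571) and 0.20 for Myh4 (exact p = 0.971), with overlap in each.

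**Figure D3:**
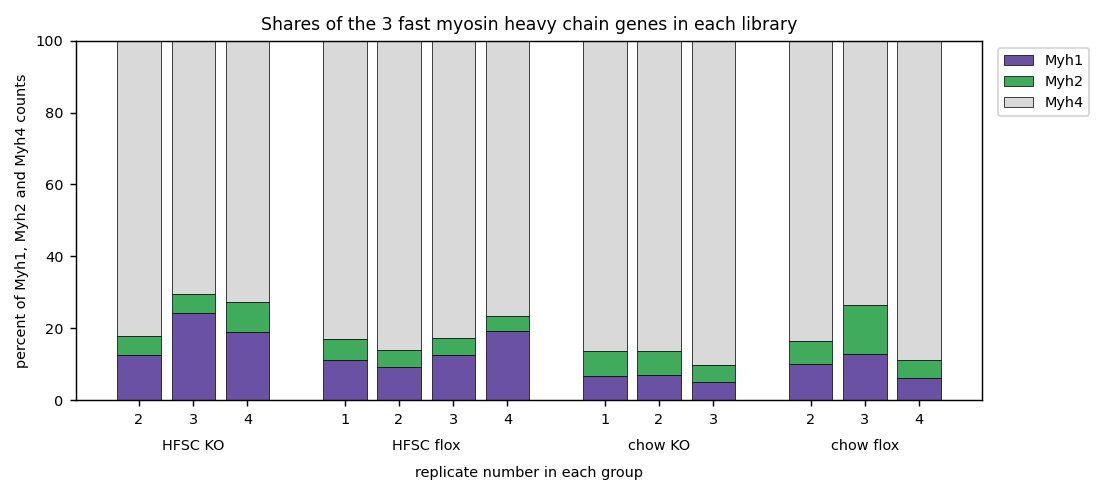
Stacked bars of the shares of Myh1, Myh2 and Myh4 (percent of their summed counts, y axis) in each of the 13 libraries, by group and replicate number. Myh1 takes 12.4% to 24.2% in HFSC KO and 5.09% to 6.95% in chow KO, and the largest Myh2 share is 13.6% in chow flox replicate 3.

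Against their slow counterparts the fast genes stood higher on HFSC in both genotypes, while the slow genes themselves fell. Of the 8 counterparts compared, 7 fell on HFSC in KO and 6 in flox. Actn2, which is not confined to slow fibres, was called in neither. Myh7, the slow myosin heavy chain, was at 157, 225 and 106 CPM in HFSC KO, against 3121, 3417 and 3189.6 CPM in chow KO. In HFSC flox it was at 548, 239, 169 and 163 CPM, against 3416, 2410 and 3146 CPM in chow flox. No HFSC library came near a chow library, and the log2 fold change was -4.32 ± 0.47 in KO (adjusted p = 0.000649) and -3.42 ± 0.40 in flox (adjusted p = 0.00273).

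The slow light chains Myl3 and Myl2, the slow troponins Tnnc1, Tnni1 and Tnnt1, and the slow calcium pump Atp2a2 all fell in KO, with log2 fold changes of -2.52 to -3.81. In flox the same genes fell, at -2.24 to -2.95, apart from Myl2, at -2.60 with an adjusted p of 0.0709. Actn2 was at 0.32 ± 0.18 in KO (adjusted p = 0.191) and -0.25 ± 0.16 in flox (adjusted p = 0.556). Without HFSC KO replicate 3 the count in KO was again 7, and without chow flox replicate 4 that in flox was again 6. The flox count was 4 without HFSC flox replicate 2, 3 or 4 or chow flox replicate 2 or 3. In the fit of the flox groups alone edgeR called 0 slow genes, with 7 at an unadjusted p under 0.05, while DESeq2 and limma voom called 7 lower. EdgeR called no slow gene between KO and flox on either diet, and neither did DESeq2 or limma voom; 1 had an unadjusted p under 0.05 on HFSC and 0 on chow.

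Ratios of fast gene to counterpart, per kilobase, were higher on HFSC without overlap for 7 of 8 pairs, in KO and in flox. These ratios do not depend on library scaling. Myh4 over Myh7 was at 477, 275 and 512 in HFSC KO, against 25.8, 31.5 and 37.9 in chow KO. It was at 130, 421, 414 and 422 in HFSC flox, against 15.9, 14.996 and 33.8 in chow flox. Geometric means of the 7 ratios were 4.83-fold (Atp2a1 over Atp2a2) to 23.2-fold (Mylpf over Myl2) higher on HFSC in KO, and 5.71-fold (Atp2a1 over Atp2a2) to 15.6-fold (Myh4 over Myh7) higher in flox. All 8 pairs were apart in flox once chow flox replicate 4 was left out, Actn3 over Actn2 by 1.83-fold and the other 7 by 6.47-fold to 20.2-fold. For Actn3 over Actn2 that library, at 7.70, was the one that overlapped, so leaving it out fixed this separation in advance. Actn3 over Actn2 went the other way in KO, 5.88, 3.13 and 4.86 on HFSC against 8.43, 7.64 and 10.4 on chow, without overlap. It is not a ratio of fast to slow gene, since Actn2 is not confined to slow fibres. Between KO and flox, ratios overlapped for all 8 pairs on HFSC and for 7 on chow; the exception was Mylpf over Myl2, at 15.6 to 16.9 in chow KO against 20.1 to 29.4 in chow flox. On chow 6 more pairs were apart without chow flox replicate 4, all with the higher ratio in KO. In each of these 6 pairs the library left out was the one that overlapped chow KO, so their separation followed from that choice.

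**Figure D4:**
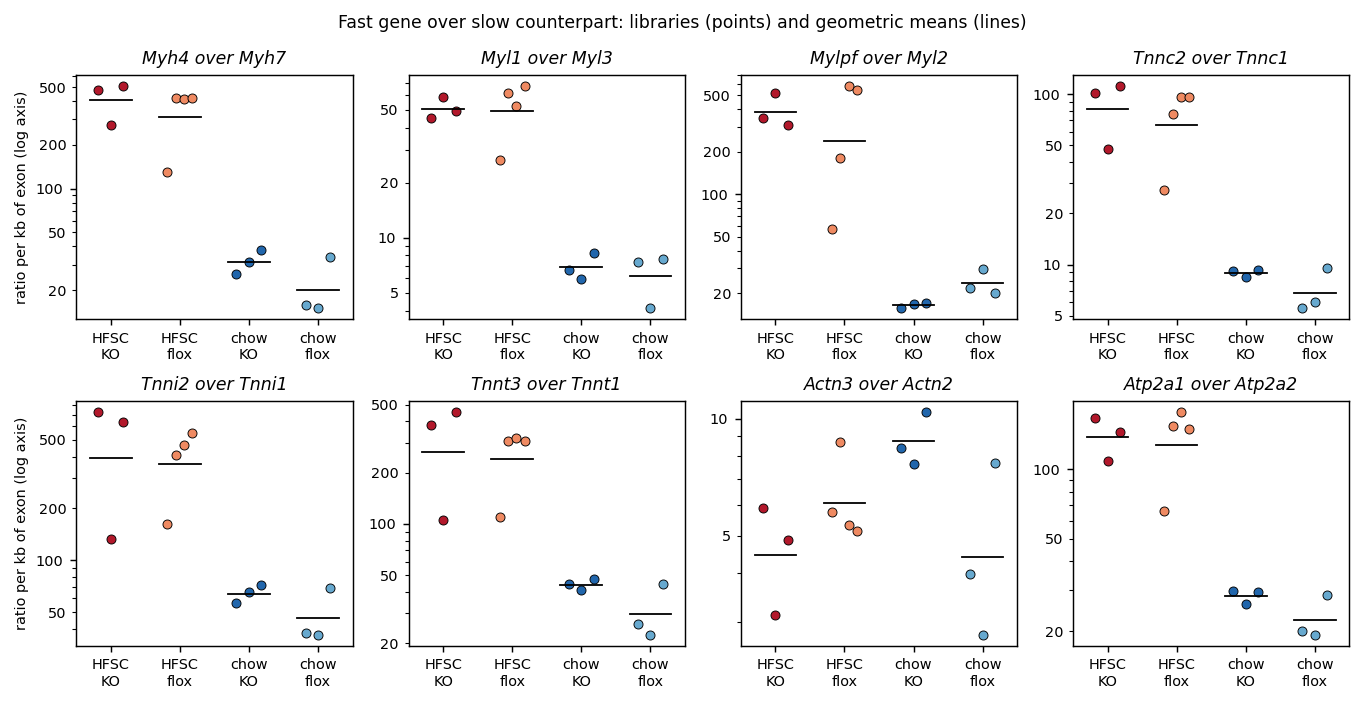
Ratio of each fast gene to its counterpart per kilobase of exon (log axis), with points for libraries and lines at geometric means of each group. HFSC libraries lie above chow libraries in 7 panels for both genotypes. In the panel of Actn3 over Actn2 the HFSC KO libraries lie below those of chow KO.

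Other genes of the contractile programme were read from the same fit, in which 10.6% of all genes were called lower on HFSC in KO and 14.9% higher. Among 11 partners of fast fibres, 2 fell on HFSC in KO: Ryr1, the calcium release channel, at -0.88 ± 0.26 (adjusted p = 0.0307), and Jph1, which joins the membranes at the triad, at -0.61 ± 0.20 (adjusted p = 0.0454). The median of the 11 was -0.24. With shared sarcomere scaling 3 partners were called higher and 1 lower, where 4262 of all genes were called higher and 411 lower. Without HFSC KO replicate 3 edgeR called 0 partners, with 3 at an unadjusted p under 0.05. Among 14 sarcomere genes that both fibre types use, 2 fell, among them Tcap, which caps titin at the Z-disc, at -0.73 ± 0.22 (adjusted p = 0.0307). Among 16 regulators 4 fell, among them Maf, one of the large Maf factors that favour type IIB fibres in mouse, at -0.95 ± 0.24 (adjusted p = 0.0155), Eya4, a transcriptional coactivator, at -0.79 ± 0.21 (adjusted p = 0.0190) and Prox1, a factor of slow fibres, at -0.99 ± 0.32 (adjusted p = 0.0379). With shared sarcomere scaling edgeR called 0 regulators, with 4 at an unadjusted p under 0.05. Limma voom called 4 partners, 10 shared genes and 9 regulators lower, where it called 3350 of 16496 genes lower. The calls of Ryr1, Jph1, Tcap, Maf, Eya4 and Prox1 were each lost when 1 of several single libraries was left out.

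Of 7 developmental sarcomere genes, 2 rose on HFSC in KO and 1 fell. Actc1, cardiac actin, was at 712, 810 and 307 CPM in HFSC KO, against 92.0, 68.6 and 54.8 CPM in chow KO (log2 fold change 3.09 ± 0.58, adjusted p = 0.00489). Myl4, the embryonic light chain, rose by 1.48 ± 0.45 (adjusted p = 0.0316), and Myh13, the extraocular heavy chain in the same chromosome 11 cluster, fell by 1.72 ± 0.57 (adjusted p = 0.0438) at levels of under 5 CPM. Without HFSC KO replicate 3 these counts were 1 higher (Actc1) and 1 lower, with a median of 0.40 in place of 1.48 over the 7 genes. Myl4 and Myh13 were then not called (adjusted p = 0.122 and 0.0773). With shared sarcomere scaling 3 of the 7 were called higher and 0 lower, where 4262 of all genes were called higher and 411 lower.

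Between KO and flox on chow, edgeR called 0 of 11 partners, 0 of 14 shared genes and 0 of 16 regulators. Their counts at an unadjusted p under 0.05 were 5, 7 and 1, against 5579 of 16496 genes. DESeq2 called 2 partners and 3 shared genes higher there, and without chow flox replicate 4 edgeR called 8 partners, 10 shared genes and 8 regulators higher. Over all genes the counts called higher in these fits were 903 and 3492. Actc1 fell, with 92.0, 68.6 and 54.8 CPM in chow KO against 419, 392 and 203 CPM in chow flox (-2.23 ± 0.56, adjusted p = 0.0276), a call lost without any 1 of the chow libraries other than chow flox replicate 4 and in the fit of the chow groups alone (adjusted p = 0.191). Without chow flox replicate 4, 3 developmental genes were called lower and 1 higher. On HFSC between genotypes, and between diets in flox, edgeR called no gene of these 4 lists in the fit of all libraries. In flox between diets 0 partners and 1 gene of each other list had an unadjusted p under 0.05, and between genotypes on HFSC 0 partners and 1 of each other list. The flox calls without chow flox replicate 4 were 1 partner, 1 shared gene, 1 developmental gene and 1 regulator higher and 1 regulator lower. With limma voom they were 1 partner, 3 shared genes, 1 developmental gene and 2 regulators higher, and 1 shared gene, 1 developmental gene and 2 regulators lower. Between diets in flox DESeq2 called 1 regulator lower, and on HFSC between genotypes 1 shared gene higher. Of 4 muscle stem cell markers, Chodl rose on HFSC in KO (1.11 ± 0.29, adjusted p = 0.0185), a call lost without chow KO replicate 1 or 3 or HFSC KO replicate 4, and the others were not called by edgeR.

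Across the 13 libraries the 10 genes fell into sets that were picked after their values were seen, described here by Pearson r of log2 CPM. The libraries share 4 groups and the marker shifts above, so r describes these libraries only. Myh4, Tnnc2, Tnni2, Tnnt3, Actn3 and Atp2a1 had r of 0.82 to 0.99 in all 15 pairs (Spearman rho 0.82 to 0.98), and 0.76 to 0.99 after group means were removed. Myh1, Myl1 and Mylpf had r of 0.62 to 0.83 in their 3 pairs, and 0.20 to 0.79 after group means were removed. Between the 6 and the 3 genes r ran from -0.21 to 0.68, with Myl1 on the high side. After group means were removed Myl1 had r of 0.69 to 0.91 with the 6 genes and 0.20 with Myh1, while Mylpf had 0.36 to 0.58 with the 6 and Myh1 -0.12 to 0.11. Myh2 followed neither, at -0.45 with Myh1 and 0.26 with Myh4.

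The 6 genes also varied against the cell type markers: r with the mean log2 CPM of the matrix list was -0.86 for Actn3 and -0.71 for Myh4, and with that of the macrophage list -0.92 for Actn3 and -0.80 for Myh4. For Myh1 these were 0.42 and 0.24.

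Among 7762 named genes outside the set with a mean of at least 10 CPM, those most like Myh4 over the 13 libraries included Pygm, muscle glycogen phosphorylase (r = 0.97), the fast myosin-binding protein Mybpc2 (0.97) and Phka1, the muscle subunit of phosphorylase kinase (0.97). Those most like Myh1 were Csrnp1 (0.95), Arl2bp (0.94), Iba57 (0.94) and Frzb (0.94), at mean levels of 11.5 to 49.1 CPM. Those most like Myh2 were Atp6v0b (0.90), Fxyd6 (0.85), R3hcc1l (0.84) and Plin3 (0.83).

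**Figure D5:**
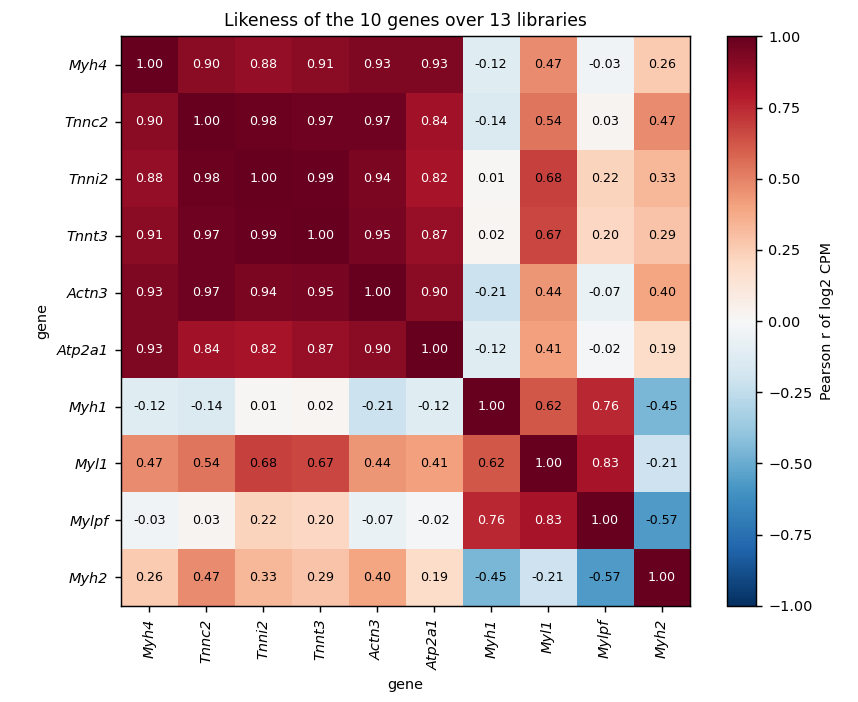
Pearson r of log2 CPM between the 10 fast fibre sarcomere genes over 13 libraries, as a colour scale from -1 to 1 with the value in each cell. A block of 6 genes, from Myh4 to Atp2a1, holds values of 0.82 and above, and Myh1, Myl1 and Mylpf hold 0.62 to 0.83 among themselves.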

How the data were processed

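Polyadenylated RNA of 13 mouse skeletal muscle libraries was read from 1 table of whole-number counts per gene, deposited by the authors. Per the submitters' processing notes reads were handled with Subread 1.5.2 (featureCounts), STAR 2.5.2b and Trimmomatic 0.36 on GRCm38; strand use in counting is not given in the sources used here. Of 49315 gene IDs, 49056 matched a symbol. Groups came from the labels' genotype and diet. The 10 genes, the comparison lists and the alternatives were chosen with earlier results of these data known.

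Counts were filtered with filterByExpr and scaled by TMM. All 13 libraries entered 1 edgeR 4.0.16 quasi-likelihood fit (R 4.3.3) with 4 group means, with Benjamini-Hochberg adjustment of the 16496 p-values and a threshold of 0.05. SE is the absolute log2 fold change divided by the square root of edgeR's F statistic, a value implied by the test. The fit was tested on simulated data in which each gene had the same spread in all groups. Groups that differ in spread were not simulated. Shares were compared by exact permutation tests in SciPy 1.17.1. Alternatives were DESeq2 1.42.0, voom of limma 3.58.1, other scalings, no filter, a replicate block, the compared groups alone, and leaving out each library. Limma voom was run with a quality weight estimated for each library, so it differs from edgeR in more than the test. For correlations, a prior count of 2 entered log2 CPM. A count of 3, the floor used, equals 0.0633 to 0.152 CPM.

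Named were all 10 genes, their counterparts, up to 4 called genes of each other list by smallest p, and the 4 genes most like each fast myosin. Some genes that this rule names are not reported here. Cell type lists are given by their counts. The libraries with least total count give the least precise values, and the spread between libraries exceeded counting error (chi-square per degree of freedom 10.5 to 193 between libraries of a group). Promoter, miRNA and UTR sequences came from RefSeq and GENCODE M21 on GRCm38.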

Additional observations from a re-analysis of the deposited data

Results flagged for a closer look

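The gap between an extreme library and its nearest neighbour, divided by the range, was read in HFSC flox, the 1 group of 4 libraries, for 21 quantities, and passed Dixon's 95% limit for 4 samples in 5 of them. Chance gives about 1 in 20. Myh1 was high in HFSC flox replicate 4 (11963 CPM, ratio 0.836), and Myh4 in replicate 2 (70168 CPM, 0.916), where Actn3 over Actn2 was also high (8.69, 0.832). Replicate 1 had the lowest Myh4 over Myh7 (130, 0.971) and Tnnt3 over Tnnt1 (111, 0.928), with 548 CPM of Myh7 against 163 to 239 CPM in the other 3. No cause was tested.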

How the results depend on the processing

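Over all alternatives the log2 fold changes of the 10 genes kept their direction and side of the threshold in 731 cases, passed it newly in 43, lost it in 10 and changed sign in 46. The counts of genes called follow in the order KO against flox on chow, KO against flox on HFSC, HFSC against chow in flox, HFSC against chow in KO, and interaction; the reported counts were 1898, 3, 69, 4201 and 0, and only counts that moved by over 1.5 times are given. With library totals the first 2 were 3093 and 0, and with shared sarcomere scaling the first 3 were 4333, 0 and 30. DESeq2 gave 3256, 165 and 392, and 2025 for the interaction; limma voom gave 9877, 33, 4145, 7116 and 7061. With no filter the HFSC genotype count was 22 and the interaction 161. With only the groups compared the first 3 were 2, 0 and 4. Leaving out 1 library gave 0 to 7158, 0 to 12, 15 to 1453, 1492 to 3006, and 0 to 5905; the highest chow genotype, flox diet and interaction counts were those without chow flox replicate 4. Same-numbered libraries showed little shared variation (16 pairs, r -0.341 to 0.109, median -0.04, with 1 over 0.1). Deviations from means of 3 or 4 libraries cannot settle whether the numbers pair them. A replicate block gave 0, 0 and, for diet in KO, 2382, with Myh1 there at 0.92 (adjusted p = 0.0587) and Mylpf at 0.52 (adjusted p = 0.127). Signs also turned under that block for Mylpf (0.11) in KO against flox on chow, Tnnt3 (-0.017) and Actn3 (-0.0098) in KO against flox on HFSC, and Myh1 in the interaction (-0.0026). The other signs that turned were, on library totals, Myh1 (-0.23), Myh2 (-0.028) and Myl1 (-0.064) in KO against flox on chow, Tnnc2 (-0.025) in flox diet and Myh2 (0.25) and Myl1 (0.27) in the interaction. On shared sarcomere scaling they were Myh1 (-0.39), Myh2 (-0.19) and Myl1 (-0.20) in KO against flox on chow, Myh2 (0.019), Tnnc2 (0.032), Tnni2 (0.19) and Tnnt3 (0.11) in diet in KO, and Myh2 (0.50), Myl1 (0.48), Tnnc2 (0.0070) and Tnni2 (0.092) in the interaction. With limma voom they were Myh2 (0.049) in flox diet and Myh1 (-0.021) in the interaction. With 1 library left out, values crossing 0 were, in KO against flox on chow, Myh1 -0.0499 to 0.20 and Mylpf -0.20 to 0.052; in KO against flox on HFSC, Tnnt3 -0.013 to 0.11, Actn3 -0.11 to 0.11 and Atp2a1 -0.20 to 0.035; in flox diet, Tnnc2 -0.13 to 0.44, Myh4 -0.027 to 0.78, Tnni2 -0.055 to 0.47, Actn3 -0.17 to 0.57 and Atp2a1 -0.023 to 0.44; in the interaction, Myh1 -0.026 to 0.48, Myh2 -0.24 to 0.093 and Myl1 -0.28 to 0.17. KO minus flox share differences ran from -0.391 to 2.55 points for Myh1, -1.17 to 0.959 for Myh2 and -2.78 to 1.03 for Myh4, which was 0.0251 with Myh7 in the denominator. The causes were not tested.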
